A study of Homo sapiens with 2 samples.

Results

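Antisense long noncoding RNA (lncRNA) genes are transcribed from the strand opposite a neighbouring gene and carry that gene's name with the ending -AS, as VIM-AS1 does for VIM. Of the 19316 genes listed in the 2 libraries, 903 had such a name. The 230 that reached an FPKM of at least 5 in either library are described here, each beside the gene named before the -AS, called its partner. FPKM scales the fragments of a gene to its length and to the size of the library, so it compares levels per length. The FPKM values of both libraries thus chose the members, and counts over them are descriptions of the choice as well as of the cells.

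SNU449 is an established human liver cancer cell line. The cells of 1 sample received a lentiviral short hairpin RNA (shRNA) against FZD2, a frizzled receptor for Wnt ligands, and those of the other a negative control shRNA, and poly(A) RNA of both was sequenced after 7 days. With 1 library in each group there was no spread between replicates to hold a difference against, and nothing was tested. The FZD2 shRNA library held 8234592 expected counts and the control library 8436870. FZD2 itself was at 15.76 FPKM in FZD2 shRNA cells, against 59.45 FPKM in control cells, which matched the labels. The growth protocol calls the cells prostate, whereas the cell type label says liver. Of 10 hepatocyte markers 2 were measured, the fibrinogen genes FGB and FGG, with ALB at 0.05 FPKM in FZD2 shRNA cells and unlisted in the control, and APOB and TTR at 0 in both. Of 7 prostate markers 2 were measured, and 4 were at 0 in both libraries.

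Antisense transcription is widespread in human cells. Some antisense lncRNAs share exonic sequence with their partner and can pair with its RNA, and some start next to the partner's promoter and are read away from it. Many are retained in the nucleus and are degraded by the RNA exosome with its cofactors, and well studied ones act on the chromatin, splicing or stability of the partner. A level alone says nothing of which of these applies.

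On GENCODE release 29, 209 of the 230 members could be placed beside their partner, and all 209 lay on the opposite strand, as the name says. The exons of 128 overlapped exons of the partner, a further 47 overlapped only the partner's gene body, 29 started back to back without overlap and 5 faced the partner without overlap. The members lay on 23 chromosomes, with the most, 26, on chromosome 3. The sources used here do not say whether the authors counted reads by strand, and the protocol describes no step that marks strand. Reads from a member and from an overlapping partner therefore cannot be told apart with certainty, which touches the 128 exon-overlapping members first.

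The promoters of 3 pairs show how differently members lie to their partners. PCNA-AS1 and VIM-AS1 were among the lowest members, and PRKAR2A-AS1 was among the highest together with its partner. The windows run from 250 bases before to 50 after the annotated start in RefSeq's GRCh38.p14 table, 5′ to 3′ on the gene's own strand. Capitals mark matches, on either strand, to CCAAT (the letters NF-Y binds), to GGGCGG (SP1), to TATAAA (general transcription factor TFIID) and to TGANTCA (AP-1).
PCNA-AS1, chr20:5119336-5119635, plus strand: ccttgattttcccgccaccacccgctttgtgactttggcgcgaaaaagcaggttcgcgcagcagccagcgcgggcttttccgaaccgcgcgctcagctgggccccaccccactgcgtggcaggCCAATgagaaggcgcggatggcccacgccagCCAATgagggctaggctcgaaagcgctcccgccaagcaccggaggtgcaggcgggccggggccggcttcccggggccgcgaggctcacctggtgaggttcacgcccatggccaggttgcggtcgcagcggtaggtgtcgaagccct
PCNA, chr20:5126573-5126872, minus strand: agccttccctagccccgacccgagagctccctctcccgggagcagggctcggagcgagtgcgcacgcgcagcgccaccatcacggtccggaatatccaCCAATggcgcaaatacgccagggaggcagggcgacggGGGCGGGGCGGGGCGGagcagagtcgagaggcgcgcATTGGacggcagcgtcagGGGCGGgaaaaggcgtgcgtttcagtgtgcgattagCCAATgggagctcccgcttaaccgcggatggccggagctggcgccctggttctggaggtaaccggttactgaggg
VIM-AS1, chr10:17229936-17230235, minus strand: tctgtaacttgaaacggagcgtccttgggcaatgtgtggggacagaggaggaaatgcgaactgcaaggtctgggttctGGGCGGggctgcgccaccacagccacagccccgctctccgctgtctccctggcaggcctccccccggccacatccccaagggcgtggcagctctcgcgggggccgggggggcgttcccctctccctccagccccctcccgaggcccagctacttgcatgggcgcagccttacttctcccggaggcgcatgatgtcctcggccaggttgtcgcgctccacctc
VIM, chr10:17227991-17228290, plus strand: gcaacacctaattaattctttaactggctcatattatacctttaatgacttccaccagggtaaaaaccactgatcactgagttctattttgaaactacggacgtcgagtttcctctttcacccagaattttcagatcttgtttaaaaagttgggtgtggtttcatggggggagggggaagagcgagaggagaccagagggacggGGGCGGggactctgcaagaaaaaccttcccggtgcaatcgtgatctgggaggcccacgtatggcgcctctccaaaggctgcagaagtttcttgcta
PRKAR2A-AS1, chr3:48847687-48847986, plus strand: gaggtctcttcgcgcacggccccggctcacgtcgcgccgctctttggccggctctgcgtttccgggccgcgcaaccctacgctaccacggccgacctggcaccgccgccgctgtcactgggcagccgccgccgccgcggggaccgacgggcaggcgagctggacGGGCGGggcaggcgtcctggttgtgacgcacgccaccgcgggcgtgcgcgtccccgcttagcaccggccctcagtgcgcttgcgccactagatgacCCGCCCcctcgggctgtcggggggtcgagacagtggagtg
PRKAR2A, chr3:48847825-48848124, minus strand: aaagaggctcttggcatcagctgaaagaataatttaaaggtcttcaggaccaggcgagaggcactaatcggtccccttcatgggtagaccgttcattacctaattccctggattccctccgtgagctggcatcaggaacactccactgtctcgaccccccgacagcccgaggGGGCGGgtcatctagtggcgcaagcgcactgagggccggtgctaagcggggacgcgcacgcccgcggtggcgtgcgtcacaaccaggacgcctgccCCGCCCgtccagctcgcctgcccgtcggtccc
The PRKAR2A-AS1 and PRKAR2A windows overlap, so the pair starts from 1 stretch of DNA, with 5′ ends 111 bases apart on GENCODE. VIM-AS1 starts downstream of the VIM start and runs back across it, with 5′ ends 1726 bases apart. PCNA-AS1 starts inside the span of the PCNA gene, and its window shares no base with that of PCNA. Among the members' promoters in the table (177), CCAAT was found in 33.9%, GGGCGG in 50.8%, TATAAA in 4.52% and TGANTCA in 7.91%. Over all promoters of the table (27305), the same letters were found in 35.7%, 44.6%, 12.0% and 7.76%. The partners' promoters (178) held GGGCGG in 60.1% and TATAAA in 7.87%. CpG dinucleotides had a median of 19 per window in members, 25 in partners and 14 over all genes. These are matches of letters and say nothing of binding.

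Most members were higher in FZD2 shRNA cells, and the split followed whether their reads were shared with other genes. Differences are given as log2((FPKM + 1)/(FPKM + 1)), FZD2 shRNA cells over control cells, which understates those of low genes, and a gene is called higher or lower at 2-fold or more. By that rule 128 of the 230 members were higher, 10 lower and 92 between, with a median log2 ratio of 1.23. Of all 14377 genes with at least 1 FPKM in either library, 15.2% were higher and 7.41% lower, and of the 9806 genes at 5 FPKM or more 16.6% and 8.13%. Nothing is read from that contrast, because a member that passed 5 FPKM only in the library where it is high had to differ. The FZD2 shRNA library alone brought in 110 members, of which 84 were higher, and the control library alone 11, of which 6 were lower. The other 109 were at 5 FPKM or more in both libraries, and 44 of them were higher and 4 lower, with a median log2 ratio of 0.64. Just outside the limit, the 41 antisense genes at 4 to 5 FPKM had 19 higher and 2 lower, among them WT1-AS at 4.99 FPKM in FZD2 shRNA cells, against 1.46 in control cells. Just inside it, the 31 members at 5 to 6 FPKM had 15 higher and 0 lower, starting with LIFR-AS1 at 5.0 FPKM in FZD2 shRNA cells, against 2.45 in control cells.

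A gene is said to have shared reads when its expected count is not a whole number in either library, since the authors' counting then split reads between it and other genes. That held for 179 members, or 77.8%, against 42.2% of all genes at 5 FPKM or more. The 179 had 122 higher and 2 lower and a median log2 ratio of 1.49. The 51 members without shared reads had 6 higher and 8 lower and a median of 0.15. The same feature moved with the ratio outside the members, since of the other genes at 5 FPKM or more, 31.8% of the 3958 with shared reads were higher and 4.27% lower, and of the 5618 without, 4.33% were higher and 11.0% lower. Among the 30 members without shared reads that were at 5 FPKM or more in both libraries, 2 were higher and 3 lower. The part of shared reads in the members' ratios was not tested.

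**Figure D1:**
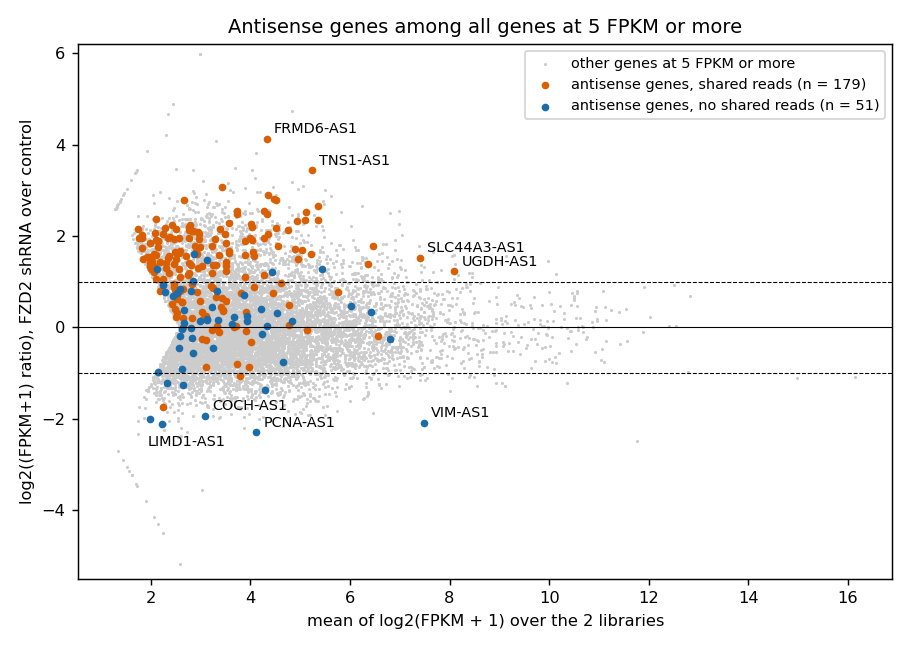
Each point is a gene at 5 FPKM or more in either library, with its mean log2(FPKM + 1) over both libraries on the horizontal axis and its log2 ratio of FZD2 shRNA over control on the vertical axis. Of the 179 antisense genes with shared reads (orange) 122 lie above the upper dashed 2-fold line and 2 below the lower one, whereas the 51 without shared reads (blue) have 6 above and 8 below; the slanted left edge comes from the 5 FPKM rule.

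Taken as sums of expected counts, the members made up 0.918% of the FZD2 shRNA library (95% exact binomial interval 0.912% to 0.925%) and 0.467% of the control library (0.463% to 0.472%), a ratio of 1.97. The sum over the 179 members with shared reads was 0.800% (0.794% to 0.806%) of the FZD2 shRNA library, against 0.299% (0.295% to 0.303%) of the control library. For the 51 without shared reads the order was the other way round, at 0.118% (0.116% to 0.121%) of the FZD2 shRNA library and 0.168% (0.166% to 0.171%) of the control library. VIM-AS1 alone gave 1335 of the 9730 counts in FZD2 shRNA cells and 5868 of the 14210 in control cells. That gene accounts for the order, since the counts left without VIM-AS1 were nearly equal in the libraries. Intervals cover counting error only, and not all of it, since amplified copies of 1 molecule count as several reads. Nor do they cover the error of splitting shared reads between genes. A bulk library cannot tell fewer cells with a transcript from less of it per cell.

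Among the members whose reads were not shared, 7 with at least 50 counts were lower. PCNA-AS1 (gene identifier 100302739, chromosome 20), named after the sliding clamp of DNA replication, had 6.84 FPKM in FZD2 shRNA cells, against 37.32 FPKM in control cells. Its log2 ratio of -2.29 was the lowest of all members, on 20 counts in FZD2 shRNA cells and 112 in control cells (95% interval of the count log2 ratio -3.22 to -1.76). PCNA itself had 47.2 FPKM in FZD2 shRNA cells, against 135.96 FPKM in control cells, a log2 ratio of -1.51 (-1.68 to -1.38). Both genes of the pair were lower, the antisense gene by more on this scale, and the counting intervals of the pair do not overlap. PCNA-AS1 was not among the members placed on GENCODE, so its exon overlap with PCNA was not measured. Part of the pair's reads may therefore belong to either strand.

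VIM-AS1 (100507347, chromosome 10) lies across the start of VIM, the gene of the intermediate filament protein vimentin, which marks mesenchymal cells. It had 86.0 FPKM in FZD2 shRNA cells, against 367.97 FPKM in control cells, a log2 ratio of -2.08 (-2.19 to -2.02). With 1335 and 5868 counts it is by far the best counted of the lower members. VIM had 2409.71 FPKM in FZD2 shRNA cells, against 3090.37 FPKM in control cells (-0.36), so it lay between the limits. Of the pair's counts, VIM-AS1 held 3.02% (exact binomial interval 2.86% to 3.19%) in FZD2 shRNA cells and 9.42% (9.19% to 9.65%) in control cells. The antisense gene was thus the smaller share of the pair in both libraries, and a smaller one in FZD2 shRNA cells. On GENCODE 32.2% of its exonic bases lie in VIM exons, and neither gene's count was split.

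COCH-AS1 (100506071, chromosome 14) is named after cochlin, a secreted matrix protein of the inner ear. It had 3.35 FPKM in FZD2 shRNA cells, against 15.64 FPKM in control cells (-1.94). COCH had 16.55 FPKM in FZD2 shRNA cells, against 37.33 FPKM in control cells (-1.13). Both genes of the PCNA and COCH pairs were lower by at least 2-fold and had no shared reads, although COCH fell short in TPM and with a pseudocount of 5. Exons of COCH-AS1 lay to 51.3% in COCH exons, so part of the pair's reads may belong to either strand. COCH-AS1 passed 5 FPKM in control cells only, where it was high.

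A further 3 lower members without shared reads and with at least 50 counts had partners between the limits. LIMD1-AS1 (644714, chromosome 3), beside the LIM domain scaffold LIMD1, had 1.25 FPKM in FZD2 shRNA cells, against 8.79 FPKM in control cells (-2.12). LIMD1 had 6.18 FPKM in FZD2 shRNA cells, against 5.22 FPKM in control cells (0.21). The antisense gene gave 6.88% (4.46% to 10.1%) of the pair's counts in FZD2 shRNA cells and 38.0% (33.5% to 42.7%) in control cells. PXN-AS1, named after the focal adhesion adaptor paxillin, had 3.05 FPKM in FZD2 shRNA cells, against 8.74 FPKM in control cells (-1.27), with PXN at 0.13. SLCO4A1-AS1, beside an organic anion transporter, had 2.29 FPKM in FZD2 shRNA cells, against 6.6 FPKM in control cells (-1.21), with SLCO4A1 at -0.46. In these pairs the antisense gene was lower in FZD2 shRNA cells and the partner was not, by the 2-fold rule. All 3 antisense genes passed 5 FPKM in control cells only, where they were high, and partners faced no such rule. Nothing is therefore read from that contrast. PABPC4-AS1 was also lower without shared reads (-2.00), on under 50 counts, and it too passed 5 FPKM in control cells only.

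The 2 lower members with shared reads were named after metabolic enzymes. CBR1-AS1, beside the carbonyl reductase CBR1, had 1.61 FPKM in FZD2 shRNA cells, against 7.72 FPKM in control cells (-1.74). ALDH1A3-AS1, beside an aldehyde dehydrogenase that makes retinoic acid, had 8.64 FPKM in FZD2 shRNA cells, against 19.18 FPKM in control cells (-1.07). ALDH1A3 was lower too, at 13.95 FPKM in FZD2 shRNA cells, against 42.06 FPKM in control cells (-1.53), while CBR1 was at -0.58. CBR1-AS1 passed 5 FPKM in control cells only, so nothing is read from its contrast with CBR1. ALDH1A3-AS1 fell short of 2-fold in TPM, in CPM of the counts and with a pseudocount of 5.

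On the higher side, 4 members without shared reads had at least 50 counts. SAPCD1-AS1 (104413891, chromosome 6) had 11.8 FPKM in FZD2 shRNA cells, against 3.2 FPKM in control cells (1.61, interval 1.08 to 2.75). SAPCD1 had 9.5 FPKM in FZD2 shRNA cells, against 2.3 FPKM in control cells (1.67), and 71.8% of the member's exonic bases lie in SAPCD1 exons. SGO1-AS1 (100874028, chromosome 3), beside shugoshin, which protects sister chromatid cohesion in mitosis, had 13.63 FPKM in FZD2 shRNA cells, against 4.26 FPKM in control cells (1.48). With SGO1 at 0.84, and 93.2% of the antisense exons inside SGO1 exons, both of these pairs were higher together, though SGO1 missed the limit. Unlike their antisense genes, the partners SAPCD1 and SGO1 had shared reads. Both antisense genes passed 5 FPKM in FZD2 shRNA cells only, where they were high.

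ZNF32-AS1 (414197, chromosome 10) and P4HA2-AS1 (100861518, chromosome 5) parted from their partners. ZNF32-AS1, beside a zinc finger gene, had 66.71 FPKM in FZD2 shRNA cells, against 27.09 FPKM in control cells (1.27, interval 0.94 to 1.66), with ZNF32 at -0.32. P4HA2-AS1, beside a collagen prolyl 4-hydroxylase subunit, had 31.68 FPKM in FZD2 shRNA cells, against 13.18 FPKM in control cells (1.20, interval 0.90 to 1.63), with P4HA2 at -0.13. Both antisense genes were higher in FZD2 shRNA cells while the partners differed little, and neither gene of either pair had shared reads. CDK6-AS1 (1.27) and MCHR2-AS1 (1.02) completed the 6, on under 50 counts each.

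The members with the largest ratios all had shared reads. FRMD6-AS1 (145438, chromosome 14), inside the gene of a FERM domain protein of the Hippo pathway, had 82.92 FPKM in FZD2 shRNA cells, against 3.81 FPKM in control cells. Its log2 ratio of 4.12 (count interval 4.10 to 4.79) was the highest of all members. FRMD6 had 8.75 FPKM in FZD2 shRNA cells, against 13.78 FPKM in control cells (-0.60). FRMD6-AS1 therefore gave 85.0% (83.3% to 86.6%) of the pair's counts in FZD2 shRNA cells, and 12.9% (10.3% to 16.0%) in control cells. TNS1-AS1 (105373878, chromosome 2), named after the actin-binding adhesion protein tensin 1, followed with 122.74 FPKM in FZD2 shRNA cells, against 10.44 FPKM in control cells (3.44). TNS1 was close to silent, at 0.13 FPKM in FZD2 shRNA cells and 0.12 FPKM in control cells.

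The next 6 were FAM3D-AS1 (3.08), FAM53B-AS1 (2.89), FRY-AS1 (2.81), ZFPM2-AS1 (2.79), FOSL2-AS1 (2.79) and PCSK6-AS1 (2.65). FAM53B-AS1 had 54.77 FPKM in FZD2 shRNA cells, against 6.51 FPKM in control cells. PCSK6-AS1, beside a proprotein convertase gene, had 102.0 FPKM in FZD2 shRNA cells, against 15.46 FPKM in control cells. FOSL2-AS1, beside an AP-1 transcription factor gene, had 15.83 FPKM in FZD2 shRNA cells, against 1.44 FPKM in control cells, with FOSL2 at 6.46 FPKM in FZD2 shRNA cells and 7.54 FPKM in control cells (-0.20). Of the 8 partners, TNS1, FAM3D, FRY, ZFPM2 and PCSK6 stayed under 1 FPKM in both libraries, and none of the other 3 passed 2-fold. FRMD6-AS1, FAM3D-AS1 and FOSL2-AS1 passed 5 FPKM in FZD2 shRNA cells only, where they were high.

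Many higher members carry sequence like the Alu repeat, a primate element derived from the 7SL RNA of the signal recognition particle and present in very many copies. The longest matched GENCODE transcript was searched with the 7SL gene RN7SL1. Near-identical stretches of this element occur in many transcripts, so reads that fall in them can match several genes.

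A transcript was matched for 212 members, of which 113 (53.3%) held some Alu-like sequence, against 28.0% of 9618 matched genes at 5 FPKM or more and 22.0% of 177 partners. The 99 members without it had 30 higher and 7 lower and a median log2 ratio of 0.69. The 92 with up to 10% of it had 70 higher and 1 lower and a median of 1.63, and the 21 with over 10% had 18 higher and 0 lower and a median of 1.76. Among all genes at 5 FPKM or more the medians were -0.19, 0.57 and 1.503 in the same order. Across the 212 members, Spearman's rho between the Alu-like share and the log2 ratio was 0.54, a description of transcripts that share both libraries. Shared reads went with it, since 110 of 167 matched members with shared reads held Alu-like sequence and 3 of 45 without. The 57 members with shared reads and no Alu-like sequence had 24 higher and 1 lower and a median of 0.88, which lay between the 110 with both (1.65) and the 42 with neither (0.15). GC content of the transcripts did not move with the ratio (rho -0.04 without and 0.03 with shared reads). The part of Alu-like sequence in the ratios was not tested.

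**Figure D2:**
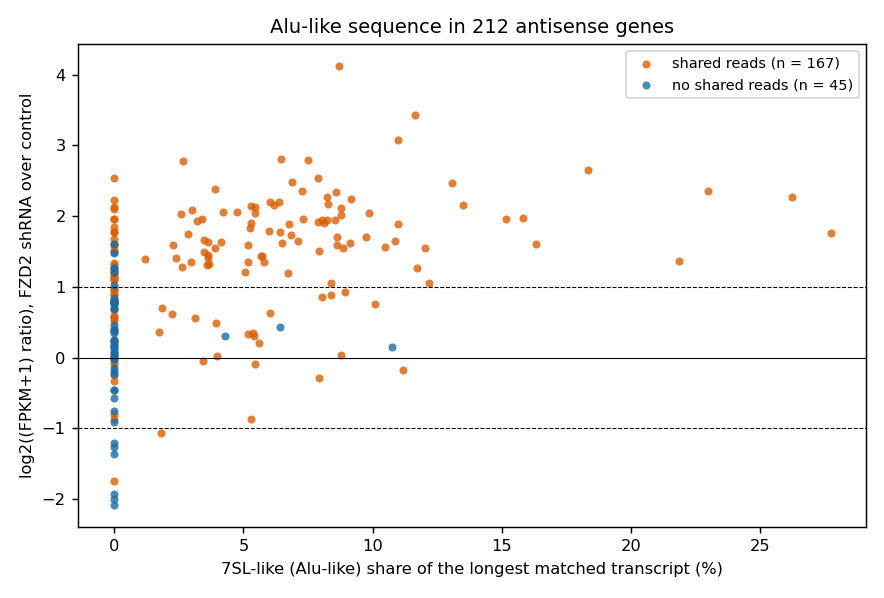
The 212 members with a matched transcript are plotted by the Alu-like share of that transcript (horizontal, percent) and their log2 ratio of FZD2 shRNA over control (vertical), with dashed lines at 2-fold. Of the 45 without shared reads (blue) 42 sit at 0%, while the members over 10% have a median ratio of 1.76.

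The most abundant members were UGDH-AS1, VIM-AS1, SLC44A3-AS1, BFSP2-AS1, DLGAP1-AS2 and TNS1-AS1. UGDH-AS1 (100885776, chromosome 4), beside the gene of UDP-glucose dehydrogenase, had 417.35 FPKM in FZD2 shRNA cells, against 176.84 FPKM in control cells (1.23, count interval 1.18 to 1.29). UGDH had 45.99 FPKM in FZD2 shRNA cells, against 42.71 FPKM in control cells (0.10). The antisense gene stood above its partner in both libraries, with 89.9% (89.4% to 90.5%) of the pair's counts in FZD2 shRNA cells and 79.3% (78.3% to 80.4%) in control cells. SLC44A3-AS1, which starts 61 bases from a choline transporter-like gene and is read away from it, had 286.88 FPKM in FZD2 shRNA cells, against 99.2 FPKM in control cells (1.52), with SLC44A3 at 0.64. BFSP2-AS1 had 161.32 FPKM in FZD2 shRNA cells, against 46.55 FPKM in control cells (1.77), and its partner, a lens filament gene, was listed in neither library. DLGAP1-AS2 had 131.84 FPKM in FZD2 shRNA cells, against 50.04 FPKM in control cells (1.38), with DLGAP1 at 1.8 FPKM in FZD2 shRNA cells and 2.21 FPKM in control cells. All of these but VIM-AS1 had shared reads and were higher in FZD2 shRNA cells.

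Whether a member and its partner moved together can be asked in 179 pairs. For 36 members the partner was under 1 FPKM in both libraries, for 13 it was listed in neither, and for MYL12-AS1 and HOXB-AS3 no gene has the name before the -AS. The 179 pairs held 177 partner genes, and DLGAP1, PTOV1 and SHANK2 are each named by 2 members. Of the 177 measured partners 13 were higher and 16 lower, with a median log2 ratio of -0.19, so that 7.34% were higher and 9.04% lower, against 15.2% and 7.41% of all measured genes. In TPM, which moves the median of all measured genes to 0.14, the same partners were 20 higher and 13 lower. The partners with shared reads (68) had 10 higher and 1 lower and those without (109) 3 higher and 15 lower.

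In 147 of the 179 pairs the member's log2 ratio was above the partner's, by 1.15 in the median. The member was above by at least 1 in 99 pairs (55.3%) and below by at least 1 in 8 (4.47%). Because the 5 FPKM rule chose members and not partners, nothing is read from that order. The difference too split with shared reads. The 133 pairs whose member had shared reads had a median difference of 1.46, with the member above in 123. The 46 pairs whose member had none had a median difference of 0.04, with the member above in 24. Spearman's rho between the log2 ratios of member and partner was 0.07 over the 179 pairs, 0.35 over the 46 and 0.41 over the 33 in which neither gene had shared reads. The points of these correlations share both libraries, and overlapping genes may share reads, so they are descriptions only.

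**Figure D3:**
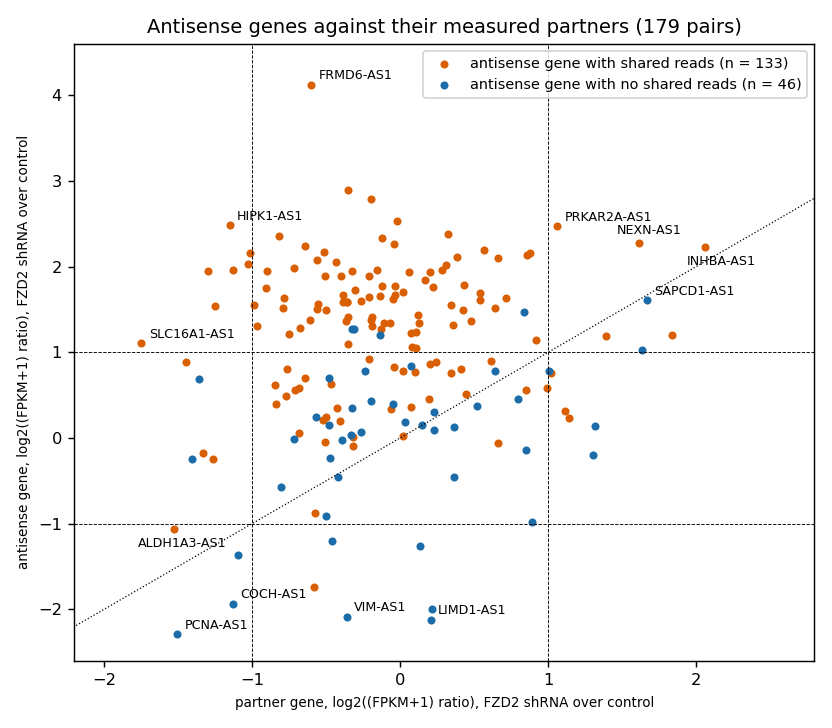
Each of the 179 pairs is plotted by the partner's log2 ratio (horizontal) and the antisense gene's log2 ratio (vertical), FZD2 shRNA over control, with dashed lines at 2-fold and a dotted line of equal ratios. Antisense genes with shared reads (orange) lie above the dotted line in 123 of 133 pairs, those without (blue) in 24 of 46.

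By the 2-fold rule the most frequent combination was a higher member with a partner between the limits, in 83 pairs, followed by both between in 61. Both genes were higher in 7 pairs and both lower in 4. In another 7 pairs the member was higher and the partner lower, and in 0 pairs was the member lower and the partner higher. The FZD2 shRNA library alone brought in 110 members, against 11 for the control library, so nothing is read from that imbalance. The remaining pairs had a member between the limits with the partner higher (6) or lower (5), or a lower member with a partner between (6). Over all 177 measured partners 7.34% were higher and 9.04% lower, and no combination was tested against these shares. The partners of the 97 higher members had a median log2 ratio of -0.13, those of the 72 members between the limits -0.20 and those of the 10 lower members -0.52.

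Pairs in which both genes were higher had partners of several kinds. INHBA-AS1 (285954, chromosome 7) had 10.74 FPKM in FZD2 shRNA cells, against 1.5 FPKM in control cells (2.23). INHBA, which encodes the subunit of activin A, had 19.87 FPKM in FZD2 shRNA cells, against 4.01 FPKM in control cells (2.06). NEXN-AS1 had 25.3 FPKM in FZD2 shRNA cells, against 4.44 FPKM in control cells (2.27), beside NEXN, an actin-binding protein of muscle, with 54.29 FPKM in FZD2 shRNA cells, against 17.07 FPKM in control cells (1.61). INHBA and NEXN had no shared reads, whereas their antisense genes did. PRKAR2A-AS1 had 46.39 FPKM in FZD2 shRNA cells, against 7.52 FPKM in control cells (2.48). PRKAR2A, a regulatory subunit of protein kinase A, had 20.01 FPKM in FZD2 shRNA cells, against 9.07 FPKM in control cells (1.06, or under 2-fold with a pseudocount of 5). TRAF3IP2-AS1 (1.20) with TRAF3IP2 (1.84), an adaptor of interleukin-17 signalling, and ADORA2A-AS1 (1.19) with ADORA2A (1.39), an adenosine receptor, had shared reads in both genes. Both genes of the PRKAR2A pair had them as well. SAPCD1 above is the sixth, and MCHR2-AS1 with MCHR2 (1.63), a pair on few counts, the seventh. SAPCD1 and MCHR2 had shared reads, whereas their antisense genes had none.

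The 7 pairs with a higher member and a lower partner all had shared reads in the member and none in the partner. Apart from SLC16A1-AS1, these members passed 5 FPKM in FZD2 shRNA cells only, where they were high. SLC16A1-AS1 (100506392, chromosome 1) starts 62 bases from SLC16A1, the lactate transporter MCT1, and is read away from it. It had 20.81 FPKM in FZD2 shRNA cells, against 9.11 FPKM in control cells (1.11). SLC16A1 had 6.69 FPKM in FZD2 shRNA cells, against 24.82 FPKM in control cells (-1.75), the lowest ratio of all measured partners. The antisense gene gave 37.1% (32.0% to 42.4%) of the pair's counts in FZD2 shRNA cells and 6.71% (5.16% to 8.55%) in control cells. HIPK1-AS1 (2.49), beside a homeodomain-interacting protein kinase gene, had 30.38 FPKM in FZD2 shRNA cells, against 4.6 FPKM in control cells, while HIPK1 had 1.77 FPKM in FZD2 shRNA cells, against 5.15 FPKM in control cells (-1.15).

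The other 5 opposite pairs were named after 3 transcription regulators and 2 mitochondrial enzymes. BHLHE40-AS1 (1.95) lay beside BHLHE40 (-1.29), a circadian and hypoxia-responsive repressor, which had 7.71 FPKM in FZD2 shRNA cells, against 20.37 FPKM in control cells. NFKB1-AS1 (2.16) lay beside NFKB1 (-1.01) and ZNF217-AS1 (1.55) beside the zinc finger gene ZNF217 (-1.25). NNT-AS1 (2.03) lay beside NNT (-1.03), the mitochondrial transhydrogenase, and LARS2-AS1 (1.96) beside LARS2 (-1.13), the mitochondrial leucyl-tRNA synthetase. With a pseudocount of 5 the partners BHLHE40, HIPK1, LARS2, NFKB1, NNT and ZNF217 fell short of 2-fold, so of the 7 pairs only that of SLC16A1 kept a partner past the limit, and its antisense gene then fell short. In TPM, NNT and NFKB1 fell short as well, and NFKB1 also with TMM factors.

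**Figure D4:**
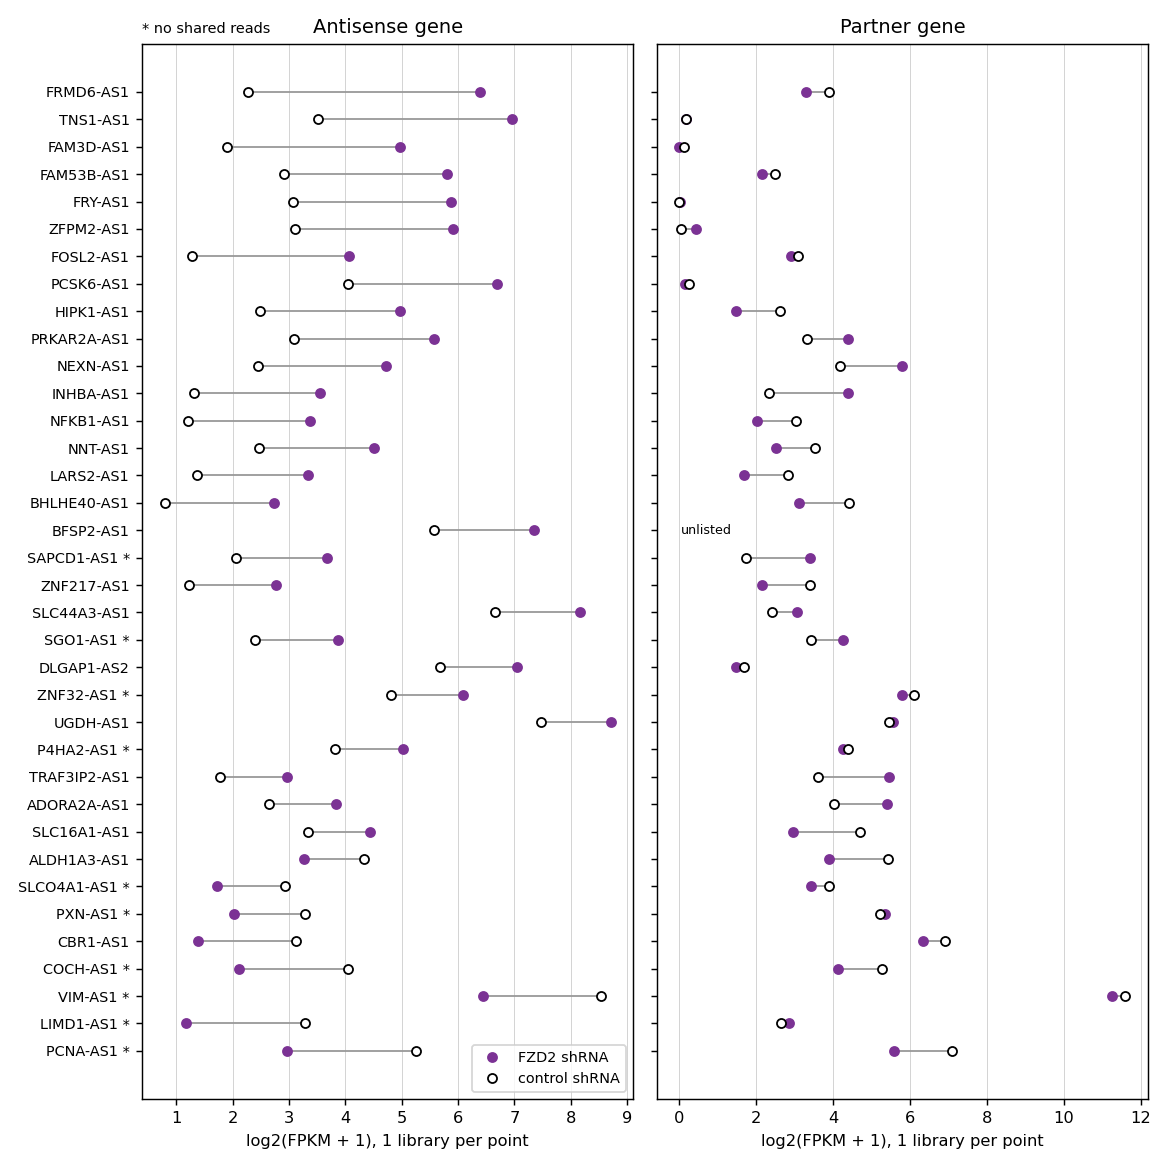
Levels of 36 members chosen by rule and of their partners are shown as log2(FPKM + 1), with the FZD2 shRNA library filled and the control library open, sorted by the member's log2 ratio and with an asterisk where the member had no shared reads. At the bottom PCNA-AS1 and COCH-AS1 shift left together with their partners, whereas FRMD6-AS1 and SLC16A1-AS1 shift right and their partners left.

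HIF1A-AS2 stood apart among the abundant members without shared reads, and is named after its values were seen. HIF1A-AS2, which overlaps the end of the hypoxia-inducible factor gene HIF1A, had 102.07 FPKM in FZD2 shRNA cells, against 121.33 FPKM in control cells (-0.25, count interval -0.35 to -0.16). HIF1A had 31.11 FPKM in FZD2 shRNA cells, against 83.96 FPKM in control cells (-1.40). HIF1A-AS2 gave 62.7% (60.8% to 64.5%) of the pair's counts in FZD2 shRNA cells and 42.2% (40.8% to 43.5%) in control cells. FOXC2-AS1, beside a forkhead factor gene of mesenchymal cells, was at 0.69 with FOXC2, which had shared reads, at -1.36. It rested on 14 counts in FZD2 shRNA cells and 8 in control cells (count interval -0.51 to 2.30). GEMIN7-AS1 was at -0.20 with GEMIN7, of the spliceosome assembly complex, at 1.31. GEMIN7-AS1 had 24 counts in FZD2 shRNA cells and 29 in control cells (-1.08 to 0.59), so the intervals of both antisense genes include 0. MIF-AS1 and the cytokine gene MIF were both on the higher side and short of 2-fold, at 0.46 and 0.80.

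Across the pairs the member held a median of 39.2% of the pair's expected counts in FZD2 shRNA cells and 21.6% in control cells. For members without shared reads the medians were 24.3% in FZD2 shRNA cells and 21.0% in control cells. The member's FPKM exceeded the partner's in 101 pairs in FZD2 shRNA cells and in 59 in control cells. The 5 FPKM rule chose members and not partners, and the FZD2 shRNA library alone brought in 110 members, against 11 for the control library. Nothing is therefore read from which gene of a pair stood on top in either library.

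Members are also given by arrangement on the chromosome, although the groups differed in how many had shared reads. Over all members 55.7% were higher and 4.35% lower, and over all genes at 5 FPKM or more 16.6% and 8.13%. The 128 exon-overlapping members had 62 higher and 8 lower and a median log2 ratio of 0.95. The 47 that overlap only the partner's body had 35 higher and 0 lower and a median of 1.65, and the 29 divergent ones 18 higher and 0 lower and a median of 1.27. The 5 convergent ones had 2 higher and 0 lower and a median of 0.49. With shared reads the medians were 1.42 for exon overlap (92), 1.72 for body overlap only (44) and 1.35 for divergent members (25). Without shared reads they were 0.15 (36), 0.44 (3) and 0.16 (4). All 12 placed members without shared reads that passed 2-fold overlapped partner exons, as did 83.7% of the 43 placed members without shared reads, against 55.4% of the 166 with them. Among pairs whose 5′ ends lie within 1000 bases, as at a shared promoter, 33 of 55 members were higher and 0 lower, while 4 of their partners were higher and 7 lower. Spearman's rho between member and partner was -0.01 over these 55 pairs and 0.14 over the 109 with more distant starts.

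The members were also grouped by what the partner does, with the values known. Over all members 55.7% were higher and 4.35% lower, and no class was tested against these shares. Of 36 members named after genes of transcription and chromatin, 21 were higher and 0 lower (median 1.32), while of the 34 measured partners 1 was higher and 5 lower (median -0.33). EP300-AS1 (2.53) and NFKB1-AS1 (2.16) were among the highest, and the 11 named after zinc finger genes of the ZNF series ran between -0.57 (ZNF22-AS1) and 1.90 (ZNF606-AS1). Of 20 members named after receptors and signalling genes, 15 were higher and 0 lower (median 1.52), and their 13 measured partners had 6 higher and 1 lower. Of those higher partners INHBA had no shared reads, whereas PRKAR2A, TRAF3IP2, ADORA2A, MCHR2 and PIK3CD had them. Over all measured partners 7.34% were higher, namely 10 of 68 with shared reads and 3 of 109 without. Of 18 named after RNA processing and protein synthesis genes, 13 were higher and 1, PABPC4-AS1, lower (median 1.68), with 1 partner higher and 1 lower.

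Cytoskeleton and adhesion genes lent their names to 14 members, of which 8 were higher and 3 lower (median 1.39). The 3 were VIM-AS1, LIMD1-AS1 and PXN-AS1, and none had shared reads. Of 10 named after transporters and channels, 5 were higher and 2 lower (median 0.96), with SLCO4A1-AS1 among the lower. Of 7 named after cell cycle and DNA repair genes, 3 were higher, among them SGO1-AS1 and CDK6-AS1, and PCNA-AS1 lower (median 0.51). Metabolic enzyme genes gave 19, with 9 higher and 2 lower (median 0.88), and 3 of their 18 measured partners were lower, namely IDH1 (-1.45), ALDH1A3 and NNT. The 106 members with other partners had 54 higher and 1 lower (median 1.06). The 51 members without shared reads had 6 higher and 8 lower. By class, 0 of 4 were higher and 3 lower in cytoskeleton and adhesion, and 0 of 4 and 2 in transporters and channels. In RNA processing and protein synthesis it was 0 of 4 and 1, and in cell cycle and DNA repair 2 of 4 and 1. Metabolic enzymes had 1 of 5 higher and 0 lower, transcription and chromatin 1 of 7 and 0, receptors and signalling 1 of 1 and 0, and other partners 1 of 22 and 1. Counts this small cannot tell the classes apart.

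Antisense genes were not alone among lncRNA genes in their direction. The 462 other lncRNA genes at 5 FPKM or more were 64.5% higher and 2.38% lower, with a median log2 ratio of 1.39, against 1.23 for the members. With shared reads (402) 71.9% were higher and 1.74% lower (median 1.54), and without (60) 15.0% and 6.67% (median 0.12). Both medians lay near those of the members with and without shared reads, 1.49 and 0.15. Genes named after a neighbour with another ending are given for comparison. There, 36 of 57 divergent (-DT) genes at 5 FPKM or more were higher and 0 lower (median 1.23), 6 of 7 intronic (-IT) genes were higher, and of 4 overlapping (-OT) genes 2 were higher and 1 lower. The 275 antisense genes between 1 and 5 FPKM had 60 higher and 11 lower and a median of 0.34. No difference between these groups was tested.

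**Figure D5:**
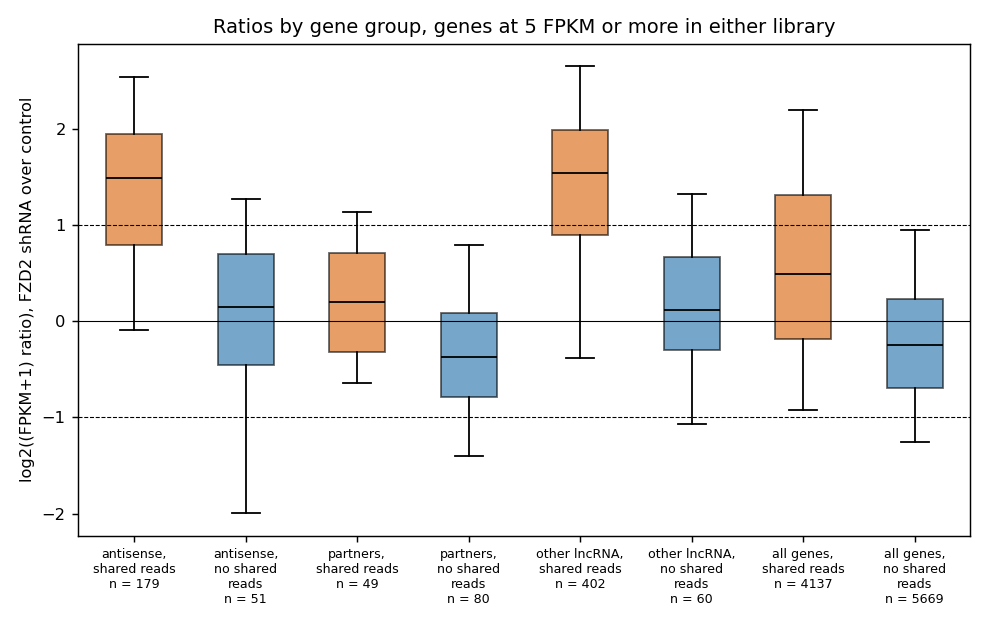
Boxes give the median and quartiles of the log2 ratio of FZD2 shRNA over control, and whiskers the 5th and 95th percentile, for genes at 5 FPKM or more in either library, with shared reads in orange and without in blue. Antisense genes and other lncRNA genes with shared reads have medians of 1.49 and 1.54, and those without 0.15 and 0.12.

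Nuclear RNA surveillance genes, which act on antisense transcripts, were measured in full. The list holds the RNA exosome and its cofactors and further genes such as XRN2, NCBP1, NCBP2 and SRRT. Of these 23 genes, 0 were higher and 0 lower by 2-fold, with a median log2 ratio of -0.17. Of all measured genes 15.2% were higher and 7.41% lower. The lowest was EXOSC3, a core exosome subunit, with 9.29 FPKM in FZD2 shRNA cells, against 19.52 FPKM in control cells (-0.996, just short of the limit). PABPN1, the nuclear poly(A) binding protein, was at 12.69 FPKM in FZD2 shRNA cells, against 25.87 FPKM in control cells (-0.97, shared reads). ZFC3H1, which targets polyadenylated nuclear RNA to the exosome, was highest, at 7.05 FPKM in FZD2 shRNA cells, against 3.51 FPKM in control cells (0.84). Of 14 genes that process or sense double-stranded RNA, STAU1 was lower, at 35.24 FPKM in FZD2 shRNA cells, against 77.28 FPKM in control cells (-1.11, shared reads), 0 were higher, and the median was -0.37. Their part in the members' levels was not tested.

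Every member falls in 1 of 6 classes, and 225 are named here. Higher with shared reads, in falling order of the ratio, were FRMD6-AS1, TNS1-AS1, FAM3D-AS1, FAM53B-AS1, FRY-AS1, ZFPM2-AS1, FOSL2-AS1, PCSK6-AS1, TPRG1-AS1, EP300-AS1, HIPK1-AS1, PRKAR2A-AS1, TBC1D22A-AS1, DDX59-AS1, RAMP2-AS1, ZNRF3-AS1, NEXN-AS1, KIAA1671-AS1, RBM5-AS1, INHBA-AS1, L1CAM-AS1, KCTD21-AS1, STAU2-AS1, NFKB1-AS1, ZBTB20-AS4, AQP4-AS1, SHANK2-AS1, KLHL6-AS1, PRR29-AS1, FBXL19-AS1, ARNT2-AS3, CPB2-AS1, RPL26L1-AS1, DOCK8-AS1, RUNDC3A-AS1, NNT-AS1, SRRM2-AS1, OSGEPL1-AS1, KDM4A-AS1, LARS2-AS1, ST3GAL3-AS1, SLFNL1-AS1, PAXBP1-AS1, BHLHE40-AS1, AFF1-AS1, TEDC2-AS1, PRICKLE2-AS3, ARHGAP44-AS1, LEMD1-AS1, SHANK2-AS3, ZNF606-AS1, PCED1B-AS1, SP2-AS1, CXXC4-AS1, CARD8-AS1, ARHGEF26-AS1, TTLL1-AS1, BFSP2-AS1, DDX39B-AS1, PTPRG-AS1, ADAMTSL4-AS1, VASH1-AS1, EXTL3-AS1, EML2-AS1, MRTFA-AS1, SLC25A25-AS1, P3H2-AS1, ENTPD1-AS1, PPP3CB-AS1, AP4B1-AS1, ENTPD3-AS1, PGM5P3-AS1, HID1-AS1, TRIM52-AS1, UCKL1-AS1, GSN-AS1, SDAD1-AS1, NFYC-AS1, DNMBP-AS1, ASB16-AS1, SCUBE1-AS1, ZNF217-AS1, SLC44A3-AS1, H1-10-AS1, SEC24B-AS1, WARS2-AS1, DNAJC27-AS1, HPN-AS1, MKLN1-AS, NCAM1-AS2, TMEM254-AS1, PRR7-AS1, SIRPG-AS1, IQCH-AS1, DLGAP1-AS2, PCGF3-AS1, ASMTL-AS1, BACE1-AS, DSCAM-AS1, HERPUD2-AS1, RBM26-AS1, HMGA2-AS1, EHHADH-AS1, PLA2G4C-AS1, ZBTB11-AS1, SPEN-AS1, DLG5-AS1, UGDH-AS1, PCF11-AS1, PIEZO1-AS1, TRAF3IP2-AS1, CKMT2-AS1, ADORA2A-AS1, CCDC18-AS1, ROR1-AS1, SLC16A1-AS1, MIDEAS-AS1, LENG8-AS1 and TMEM147-AS1. Their log2 ratios ran between 4.12 and 1.05. Lower with shared reads were CBR1-AS1 and ALDH1A3-AS1. Between the limits with shared reads, at 0.98 to -0.88, were PENK-AS1, UPK1A-AS1, ZIM2-AS1, PINK1-AS, ZNF528-AS1, ZNF337-AS1, IDH1-AS1, SCAMP1-AS1, ACTA2-AS1, ZNF529-AS1, ATP8B1-AS1, NRSN2-AS1, LIFR-AS1, ZNF433-AS1, PAX8-AS1, PIK3CD-AS2, WAC-AS1, TPT1-AS1, ERICH6-AS1, TM4SF19-AS1, DNAJC9-AS1, CLN8-AS1, ADK-AS1, PTOV1-AS1, ARRDC3-AS1, ERCC6L2-AS1, OIP5-AS1, EMC3-AS1, SBF2-AS1, CLEC12A-AS1, CTBP1-AS, CEBPB-AS1, THUMPD3-AS1, DHRS4-AS1, MAPKAPK5-AS1, ZNF566-AS1, ZNF225-AS1, ARRDC1-AS1, PM20D1-AS1, TAPT1-AS1, NUTM2A-AS1, PSMB8-AS1, HLA-F-AS1, NUTM2B-AS1, PSMA3-AS1, DENND5B-AS1, CD27-AS1, SVIL-AS1, RXYLT1-AS1, NUP153-AS1, C10orf95-AS1, MAGI2-AS3, FGD5-AS1, THAP9-AS1 and CERS6-AS1. Higher without shared reads were SAPCD1-AS1, SGO1-AS1, ZNF32-AS1, CDK6-AS1, P4HA2-AS1 and MCHR2-AS1. Lower without shared reads were SLCO4A1-AS1, PXN-AS1, COCH-AS1, PABPC4-AS1, VIM-AS1, LIMD1-AS1 and PCNA-AS1. Between the limits without shared reads, at 0.92 to -0.98, were PRR34-AS1, HEXIM2-AS2, ZNF232-AS1, ARSD-AS1, PAPPA-AS1, AQP5-AS1, OTUD6B-AS1, FOXC2-AS1, MIF-AS1, DLGAP1-AS1, ATP2A1-AS1, MPDU1-AS1, PYGO2-AS1, RUSC1-AS1, PRMT5-AS1, HOXB-AS3, SERTAD4-AS1, FAM131B-AS2, TTC28-AS1, PRC1-AS1, PRRT3-AS1, CBR3-AS1, MRPL20-AS1, PITPNA-AS1, NIFK-AS1, TBX2-AS1, PTOV1-AS2, GEMIN7-AS1, TEPSIN-AS1, HIF1A-AS2, HSD17B1-AS1, ZSWIM8-AS1, ZNF22-AS1, MYL12-AS1, STEAP1B-AS1 and UST-AS2.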

How the data were processed

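Poly(A) RNA of SNU449 cells was sequenced in 2 libraries, one per shRNA (FZD2 and control). Per the labels' protocols, RNA was selected on oligo(dT) beads, fragmented and copied to double-stranded cDNA with random primers. Bowtie2, HISAT and the build hg19 are named in the submitters' processing notes. The sources used here give no counting program, annotation or strand option. Expected counts are, per the file headers, estimated reads per gene that need not be whole and carry no normalization by the authors. The FPKM values were scaled to gene length and library size by the authors before they were deposited. The deposited files list gene identifiers with a length, and genes at 0 are left out of them, so an unlisted gene was set to 0.

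Identifiers were matched to symbols in RefSeq's GRCh38.p14 gene table; 87 of 19316 had none and could not be members. Members and lists were chosen with earlier results of these data known. A gene was measured at 1 FPKM or more in either library. Ratios used a pseudocount of 1 FPKM and a size limit of 2-fold, which is no test. Count ratios carry a 95% exact conditional binomial interval, computed on rounded expected counts scaled to the library totals, and shares an exact Clopper-Pearson interval. A count of 0 allows up to 3 counts, or 3.64e-05% of the FZD2 shRNA library and 3.56e-05% of the control library. Counts were called whole to a tolerance of 0.001.

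The named members were the 8 highest and 8 lowest with at least 50 counts in the higher library, each member without shared reads past 2-fold with 50 counts, each pair with both genes past 2-fold and 50 counts each, and the 6 with the highest FPKM. Others were named after their values were seen, and some members and sequences are not reported here. Arrangement and transcript sequence came from GENCODE release 29, another build than the files', and were used without gene coordinates. For Alu-like stretches, blastn 2.17.0 was run at a word size of 11, keeping E-values up to 1e-05. The rules were tested on simulated counts. The alternatives were pseudocounts of 0.1 and 5, TPM, the median ratio set to 0, TMM factors from edgeR 4.0.16, CPM of the counts, limits of 1.5-fold and 4-fold, filters of measured genes, and subsets of members. Python 3.11.15, NumPy 2.4.6, pandas 2.3.3, SciPy 1.17.1, matplotlib 3.10.9 and R 4.3.3 were used.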

Additional observations from a re-analysis of the deposited data

How the results depend on the processing

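The members' median stayed above 0 in every alternative run, but without shared reads the balance of higher over lower members was lost. With a pseudocount of 0.1 the members' median log2 ratio was 1.39, the median difference between member and partner 1.33, and 1749 of all measured genes were lower. With a pseudocount of 5, 74 members were higher and 5 lower (median 0.72), 5 partners higher and 6 lower, 4 pairs had the member below by at least 1, the median difference was 0.74, and 941 measured genes were higher and 301 lower. In TPM the members' median was 1.44, 20 partners were higher and the partners' median was -0.059.

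At 1.5-fold 16 members were lower, 27 partners higher and 39 lower, 18 pairs had the member below, and 3747 measured genes were higher and 3117 lower. At 4-fold 39 members were higher and 3 lower, 1 partner was higher and 0 lower, 37 pairs had the member above and 2 below, and 382 measured genes were higher and 59 lower. Fewer calls at 4-fold follow from the limit itself.

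Smaller subsets hold fewer members by construction. Without shared reads, 6 members were higher and 8 lower (median 0.15), 5 partners higher and 5 lower, 7 pairs had the member above and 7 below, and the median difference was 0.042. With at least 50 counts, 4 pairs had the member below. At 5 FPKM or more in both libraries, 44 members were higher and 4 lower (median 0.64), 4 partners higher and 7 lower, 41 pairs had the member above and 2 below, and the median difference was 0.79. Chosen after seeing the data were 2 further subsets. Without Alu-like sequence, 30 members were higher (median 0.69), 7 partners lower, 27 pairs had the member above and 5 below, and the median difference was 0.42. Without exon overlap, 55 members were higher and 0 lower (median 1.41), 4 partners higher and 3 lower, 37 pairs had the member above and 0 below, and the median difference was 1.28. For the medians that moved, the cause was not tested.

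Of the 37 named members 9 fell short of 2-fold with a pseudocount of 5 (ADORA2A-AS1, ALDH1A3-AS1, BHLHE40-AS1, CBR1-AS1, PXN-AS1, SLC16A1-AS1, SLCO4A1-AS1, TRAF3IP2-AS1 and ZNF217-AS1), as did 9 of the 17 named partners past it. Of the named members ALDH1A3-AS1 alone did so in TPM and in CPM. Among the partners NFKB1 fell short with TMM, and COCH, NFKB1 and NNT were among 4 that did in TPM. Depth limits members on few counts, such as PXN-AS1 with 19 and PCNA-AS1 with 20 in FZD2 shRNA cells. No replicate could be left out, because each group is 1 library.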
